A study of Mus musculus with 8 samples.

Results

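The cytosolic ribosomal proteins were described by subunit in the livers of 4 SIRT7 KO and 4 WT mice, each hybridised to its own Affymetrix GeneChip mouse expression array. A probe set, the group of array probes summarised to 1 value, was a member when it carried exactly 1 gene symbol of the Rpl, Rps or Rplp series or Rpsa, without the Rps6k kinases. This gave 100 of 22626 tested probe sets and 48 of 12393 genes, with 46 probe sets and 26 genes for the large subunit and 54 probe sets and 22 genes for the small subunit. SIRT7 KO mice lack the histone deacetylase SIRT7 and, per the study, develop fatty liver disease without a special diet, so in KO livers the missing enzyme and any such disease cannot be told apart. WT livers were the control. No age, sex, diet or litter was stated for the array mice, so any imbalance in them cannot be told apart from genotype. The p-values set the difference between genotypes against the spread among these 8 samples within each genotype. Values are log2 expression values as deposited, from total RNA of whole liver, in which fewer cells of a type and less RNA per cell cannot be told apart.

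The cytosolic ribosome is built from a large subunit, which joins amino acids into a chain, and a small subunit, which reads the mRNA. Its proteins are made in step with one another, and their mRNAs are among the most abundant in hepatocytes. Most of these mRNAs begin with a run of pyrimidines, the terminal oligopyrimidine (TOP) motif, through which mTORC1 signalling controls their translation. SIRT7 is known from earlier work to be brought to ribosomal protein gene promoters by transcription factors such as Myc, where it lowers transcription, which is the reason to look at these genes in livers without it.

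The labels were checked first on the deleted gene. Sirt7 averaged 4.64 ± 0.22 in SIRT7 KO livers and 8.85 ± 0.19 in WT livers (SD, n = 4 each), a difference of -4.21 (limma adjusted p = 9.2e-07). Each array had a median correlation of 0.990 to 0.994 with the other arrays of its group. The mean log2 level of 5 hepatocyte markers was 14.35 to 14.38 in SIRT7 KO livers and 14.40 to 14.46 in WT livers, without overlap, and 0 of the 5 passed the test. All 10 macrophage markers had higher means in SIRT7 KO (median difference 0.25), with 0 called and a mean level of 8.81 to 9.61 in SIRT7 KO and 8.51 to 9.57 in WT. All 4 neutrophil markers had lower means in SIRT7 KO (median -1.43), with 0 called and a mean level of 5.20 to 10.1 in SIRT7 KO and 5.38 to 11.2 in WT. That level was high on SIRT7 KO array 4 (10.1) and WT arrays 2 and 3 (11.2 and 10.6). On all other arrays of both groups it was 5.20 to 6.02, so the median reflects single livers. Of 6 endothelial markers Lyve1 rose and 3 were negative (median -0.0047), of 6 stellate cell markers Dcn rose and 1 was negative (median 0.23), and of 7 T and NK cell markers Cd3g fell and 4 were negative (median -0.030). Lyve1 kept its call with each of the 8 arrays left out in turn, while Dcn and Cd3g kept theirs in 2 of the 8 fits. The B and plasma cell, cholangiocyte and erythroid markers had 0 called and medians of -0.17, 0.016 and -0.31. All 7 T and NK cell, all 4 cholangiocyte and 3 of 4 B and plasma cell markers were not above the median level of all probe sets. Their values, that of Cd3g among them, thus say little about these cells. Among the array's own controls, 45 spiked-in control probe sets averaged 8.39 to 8.61 on SIRT7 KO arrays and 8.63 to 8.76 on WT arrays, without overlap. The 3' minus 5' difference of GAPDH, a measure of RNA integrity and labelling, was -0.016 to 0.160 on SIRT7 KO arrays and 0.163 to 0.289 on WT arrays, also without overlap, while that of beta-actin overlapped at 1.29 to 1.63 on SIRT7 KO arrays and 1.58 to 1.64 on WT arrays. The part of these values in the ribosomal protein results was not tested.

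Ribosomal protein mRNAs differed little between SIRT7 KO and WT livers, and the small differences ran mostly downward in SIRT7 KO. A probe set was called when its adjusted p was under 0.15 (limma, Benjamini-Hochberg over all tested probe sets, the 15% false discovery rate of the study's methods). By this rule 0 of 46 large subunit and 0 of 54 small subunit probe sets were called, where 4.31% of all tested probe sets were called, 2.39% lower and 1.92% higher. At an unadjusted p under 0.05, 1 large and 8 small subunit probe sets were lower in SIRT7 KO and 0 were higher, against 8.43% lower and 6.46% higher among all probe sets. Above the median brightness of all probe sets, 0 of 39 large and 7 of 42 small subunit probe sets were lower, against 13.3% of all. For 96 of the 100 members the 95% interval of the difference lay within 1.5-fold in either direction, which held for 88.4% of all probe sets. The 4 wider intervals belonged to probe sets of Rps4l, Rpl41, Rpl12 and Rps25.

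The differences were small and mostly of one sign. The difference, SIRT7 KO minus WT, was negative for 36 of 46 large subunit probe sets (78.3%) and for 45 of 54 small subunit probe sets (83.3%), where 50.8% of all tested probe sets were negative. Its median was -0.052 (-3.51%) for the large subunit and -0.075 (-5.05%) for the small subunit, beside -0.0031 for all probe sets. The large subunit median was -0.024 without WT array 4 and -0.078 without WT array 1. The SE of a single member's difference had a median of 0.071 in the large and 0.067 in the small subunit. Differences ran from -0.34 to 0.27 in the large subunit and from -0.96 to 0.13 in the small subunit.

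**Figure D1:**
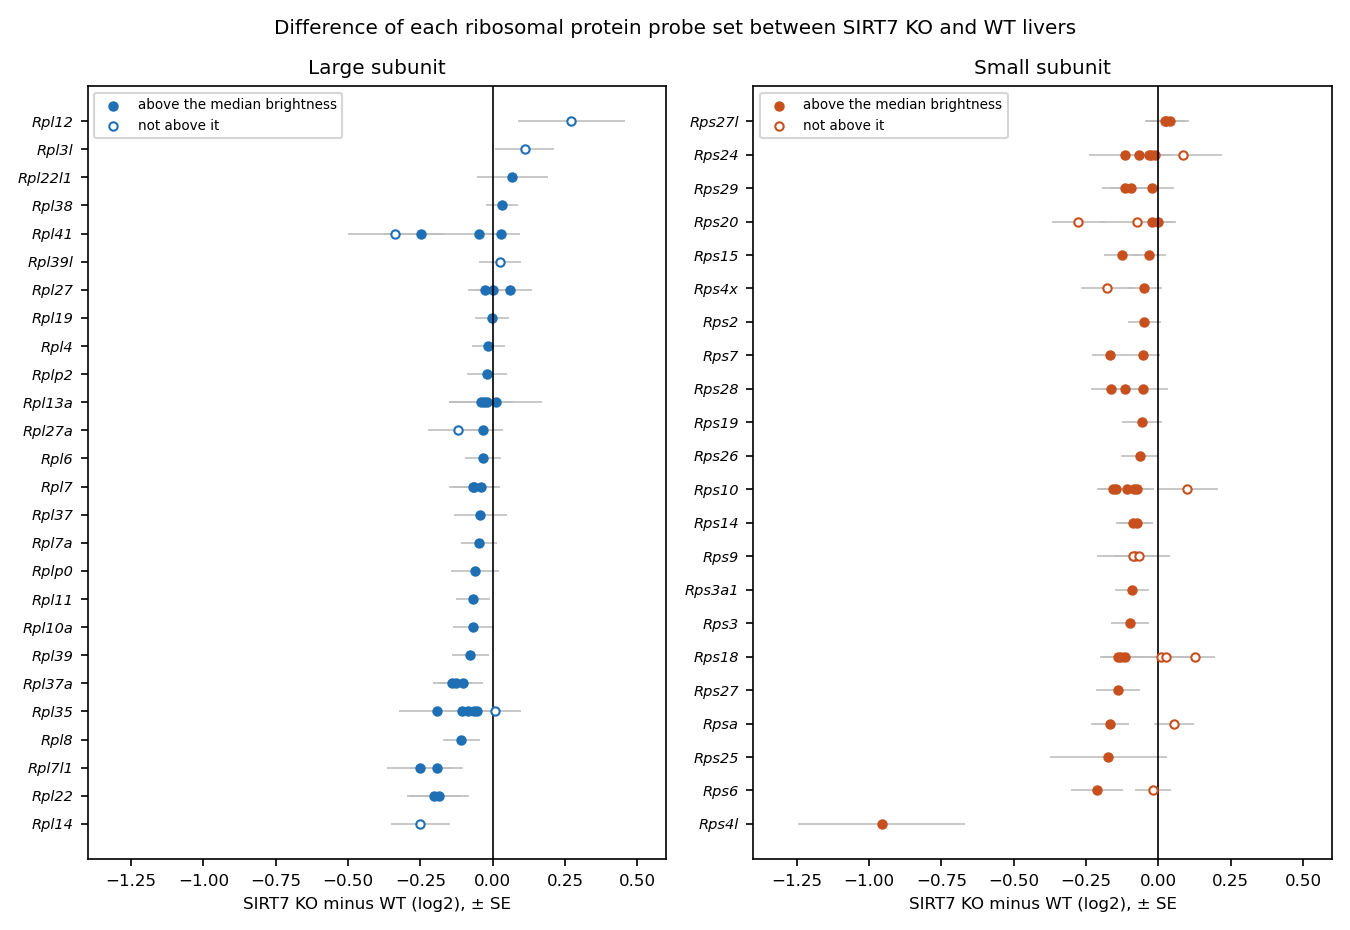
SIRT7 KO minus WT difference of each of the 100 ribosomal protein probe sets (horizontal axis, log2, with its limma SE as a bar), by gene and subunit; filled points were brighter than the median probe set of the array. Most points lie left of 0 and close to it, and Rps4l stands alone at -0.96.

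Brightness bore on the pattern. Of the members above the median brightness of all probe sets (6.35), 33 of 39 large subunit and 39 of 42 small subunit probe sets were negative, with medians of -0.055 and -0.087, where 57.3% of all probe sets above that brightness were negative, with a median of -0.030. The 19 dimmer members had 10 positive and 9 negative differences and a median of 0.0077. Above a log2 level of 12, where 24 large and 35 small subunit probe sets lay, 21 and 32 of them were negative. The 650 probe sets above that level with no ribosomal protein symbol had 50.9% negative differences and a median of -0.0061. The limit of 12 was chosen after the values were seen.

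**Figure D2:**
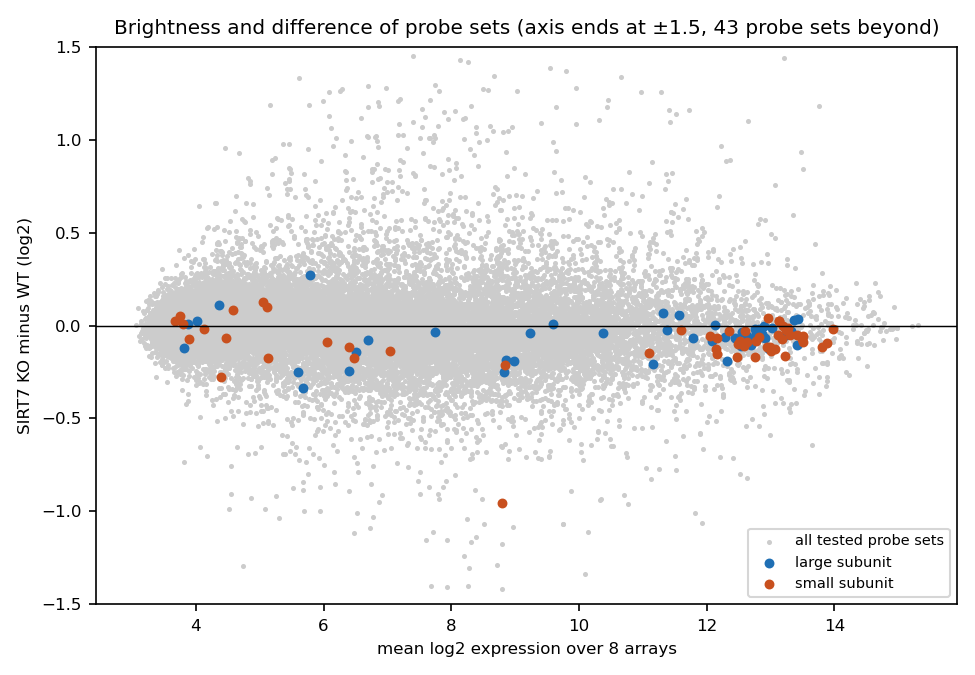
Mean log2 expression over the 8 arrays (horizontal axis) and SIRT7 KO minus WT difference (vertical axis, log2) of all tested probe sets (grey), large subunit (blue) and small subunit (orange) members. The members gather above a level of 12 and mostly just below 0, among grey points that spread to both sides.

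The shift was also seen array by array, but it was of the size of the spread between WT livers. The median deviation of the small subunit from its WT mean was -0.063, -0.117, -0.077 and -0.043 on SIRT7 KO arrays 1 to 4, against -0.031, 0.028, -0.044 and 0.039 on the WT arrays. KO array 4 and WT array 3 thus met at almost the same value. For the large subunit the medians were -0.057, -0.096, -0.040 and -0.021 in SIRT7 KO, against -0.058, 0.032, -0.019 and 0.058 in WT. All 4 SIRT7 KO arrays lay below 0 in both subunits, while WT arrays 1 and 3 lay below 0 and WT arrays 2 and 4 above it. The mitochondrial ribosomal proteins, which form the separate ribosome of that organelle, gave 0.060, 0.053, -0.074 and -0.077 in SIRT7 KO, against -0.016, -0.054, 0.036 and 0.037 in WT, and so did not share the one-sided sign. Of their 127 probe sets 0 were called and 71 were negative, with a median of -0.017.

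**Figure D3:**
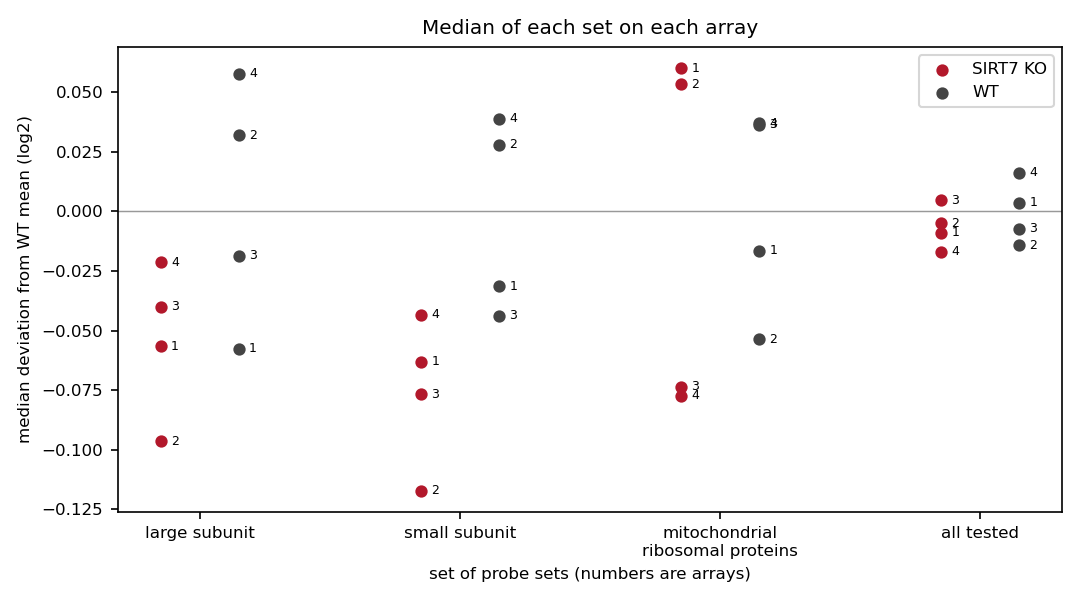
Median deviation from the WT mean (vertical axis, log2) of each set of probe sets on each array, SIRT7 KO in red and WT in grey, with array numbers beside the points. The SIRT7 KO points of both cytosolic subunits lie below 0 and reach into the range of WT arrays 1 and 3.

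Groups that did not overlap were found mainly in the small subunit. All 4 SIRT7 KO values lay below all 4 WT values in 13 of 54 small subunit probe sets, from 8 genes, and in 1 of 46 large subunit probe sets, where this held for 5.56% of all tested probe sets and for 9.1% of those above the median brightness. In 0 of the 100 members did all SIRT7 KO values lie above all WT values, which held for 3.79% of all probe sets. The 8 small subunit genes were Rps10 with 4 probe sets, Rps14 and Rps18 with 2 each, and Rps6, Rps7, Rps15, Rps28 and Rpsa with 1 each, and the large subunit gene was Rpl37a. Probe sets of 1 gene, and of genes with many near-identical pseudogenes as here, can share transcripts, so they are not independent. The count in the small subunit was 8 after a further quantile normalization of the arrays, where 5.02% of all probe sets did not overlap in this direction. It was 22 without WT array 3, where 8% of all probe sets did not overlap. In the large subunit the count was 8 once WT array 1 was dropped and 7 once SIRT7 KO array 1 was. The shares of all probe sets in those fits were 7.14% and 7.96%. Above a log2 level of 12 the count was 11 of 35 small and 1 of 24 large subunit probe sets, against 10.3% of all probe sets at that level and 8.15% of those with no ribosomal protein symbol. With each gene read by its brightest probe set alone, it was 5 of 22 small and 0 of 26 large subunit genes, against 5.7% of all genes, and 0 were called, against 4.65%. Whether the subunits differed from each other was not tested.

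The TOP motif lies at the start of the mRNA and acts on translation, and any tie to the mRNA differences was not tested. The 9 genes above, picked because their groups did not overlap, are used here to show that sequence. The 30 bases from 15 before the RefSeq start site onward are given for 8 of them (RefSeq, GRCm38.p6, strand of the gene, 5′ to 3′), with the longest run of C and T in capitals. Rpl7a, a large subunit protein whose groups overlapped, is set beside them because it had the longest run of the printed windows.
Rps10, chr17:27635230-27635259, minus strand: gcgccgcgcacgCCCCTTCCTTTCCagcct
Rps18, chr17:33955651-33955680, minus strand: tacgtcacttccgCTCTCTCTTCCacagga
Rps6, chr4:86857353-86857382, minus strand: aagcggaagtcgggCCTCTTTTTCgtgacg
Rps7, chr12:28635939-28635968, minus strand: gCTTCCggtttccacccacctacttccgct
Rps15, chr10:80292416-80292445, plus strand: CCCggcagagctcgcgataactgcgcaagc
Rps28, chr17:33824548-33824577, minus strand: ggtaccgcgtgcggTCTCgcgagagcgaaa
Rpsa, chr9:120127751-120127780, plus strand: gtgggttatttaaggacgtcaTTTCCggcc
Rpl37a, chr1:72711245-72711274, plus strand: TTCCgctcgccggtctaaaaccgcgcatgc
Rpl7a, chr2:26910792-26910821, plus strand: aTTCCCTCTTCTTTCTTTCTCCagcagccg
Rps10, Rps18 and Rps6 had runs of 13, 11 and 10 pyrimidines across the annotated start, and Rps7, Rps15, Rps28, Rpsa and Rpl37a had none over 5 bases in these windows. Rpl7a had a run of 21 and a difference of -0.05 ± 0.062 (SE), with overlapping groups. In the wider window used below, 20 bases before to 30 bases after the start, Rps7 had a run of 8. Rps15, Rpsa and Rpl37a had runs of 7 there, and Rps28 of 4. A start site in RefSeq need not be the one used in liver.

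Over all members with a promoter sequence, 42 of 48 genes, a run of at least 8 pyrimidines within 20 bases before to 30 bases after the start was present in 54.8%, with 54.2% of the large and 55.6% of the small subunit genes, where 21.5% of all genes with a promoter had one. CCGGAA, the core of an ETS family site, searched on both strands of the 300 bases around the start, was present in 66.7% of members, against 16.7% of all genes. Among the printed genes it was present for Rps6, Rps7, Rps10, Rps18 and Rpsa and not for Rps15, Rps28, Rpl37a or Rpl7a. AAGATGGC, a YY1 motif, was present in 9.52% of members and 3.19% of all genes. GGGCGG, the GC box, was present in 57.1% of members and 38.2% of all genes. A match of letters is a description and shows no binding.

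In the small subunit, Rps10 had the most probe sets without overlap. Rps10 lies in the head of the small subunit. Its probe set 1434854_a_at read 12.07, 12.05, 12.10 and 12.14 in SIRT7 KO livers, against 12.26, 12.27, 12.19 and 12.26 in WT livers, and every SIRT7 KO liver was below every WT liver. The difference was -0.16 ± 0.058 (SE, limma adjusted p = 0.251). The other 4 bright Rps10 probe sets differed by -0.07 to -0.15, and the dim 1436384_at differed by 0.10.

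Rps18, a head protein at the interface with the large subunit, read 13.00, 12.84, 12.96 and 12.96 in SIRT7 KO livers, against 13.08, 13.12, 13.02 and 13.11 in WT livers on 1448739_x_at. SIRT7 KO array 1 and WT array 3 nearly touched, and the difference was -0.14 ± 0.064 (SE, limma adjusted p = 0.353). Its other bright probe sets differed by -0.13 and -0.11, and the 3 dim ones by 0.01 to 0.13. Rps14, which lies on the platform of the small subunit, differed by -0.07 and -0.09 on its 2 probe sets.

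Rps7, needed for small subunit assembly, read 12.38, 12.37, 12.34 and 12.49 in SIRT7 KO livers, against 12.55, 12.60, 12.53 and 12.58 in WT livers on 1435593_x_at. SIRT7 KO array 4 came nearest to the WT range, and the difference was -0.17 ± 0.062 (SE, limma adjusted p = 0.242). The brighter Rps7 probe set, 1419364_a_at, differed by only -0.05 ± 0.060 (SE) with overlapping groups, so the probe sets of this gene differed in the size of the difference.

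Rpsa, also known as the laminin receptor precursor, read 12.61, 12.61, 12.75 and 12.73 in SIRT7 KO livers, against 12.79, 12.86, 12.84 and 12.90 in WT livers on 1448245_at. SIRT7 KO arrays 1 and 2 were the lowest, and the difference was -0.17 ± 0.065 (SE, limma adjusted p = 0.27). A second Rpsa probe set near the bottom of the array's range differed by 0.05, the opposite sign.

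Rps6, the substrate of the S6 kinases downstream of mTORC1, read 8.75, 8.55, 8.86 and 8.80 in SIRT7 KO livers, against 8.88, 8.93, 8.88 and 9.13 in WT livers on 1416142_at. SIRT7 KO array 2 was the lowest and WT array 4 the highest of the 8, while SIRT7 KO array 3 lay just under WT arrays 1 and 3. The difference was -0.21 ± 0.091 (SE, limma adjusted p = 0.316).

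Rps28 and Rps15 had 1 of several probe sets without overlap. Rps28 read 13.17, 13.11, 13.16 and 13.15 in SIRT7 KO livers, against 13.22, 13.41, 13.21 and 13.41 in WT livers on 1423763_x_at, a difference of -0.16 ± 0.071 (SE, limma adjusted p = 0.325). WT arrays 2 and 4 lay well above the other WT arrays, which were close to the SIRT7 KO values. The other Rps28 probe sets differed by -0.05 and -0.11 with overlapping groups. Rps15 differed by -0.13 on the probe set without overlap and by -0.03 on the other.

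**Figure D4:**
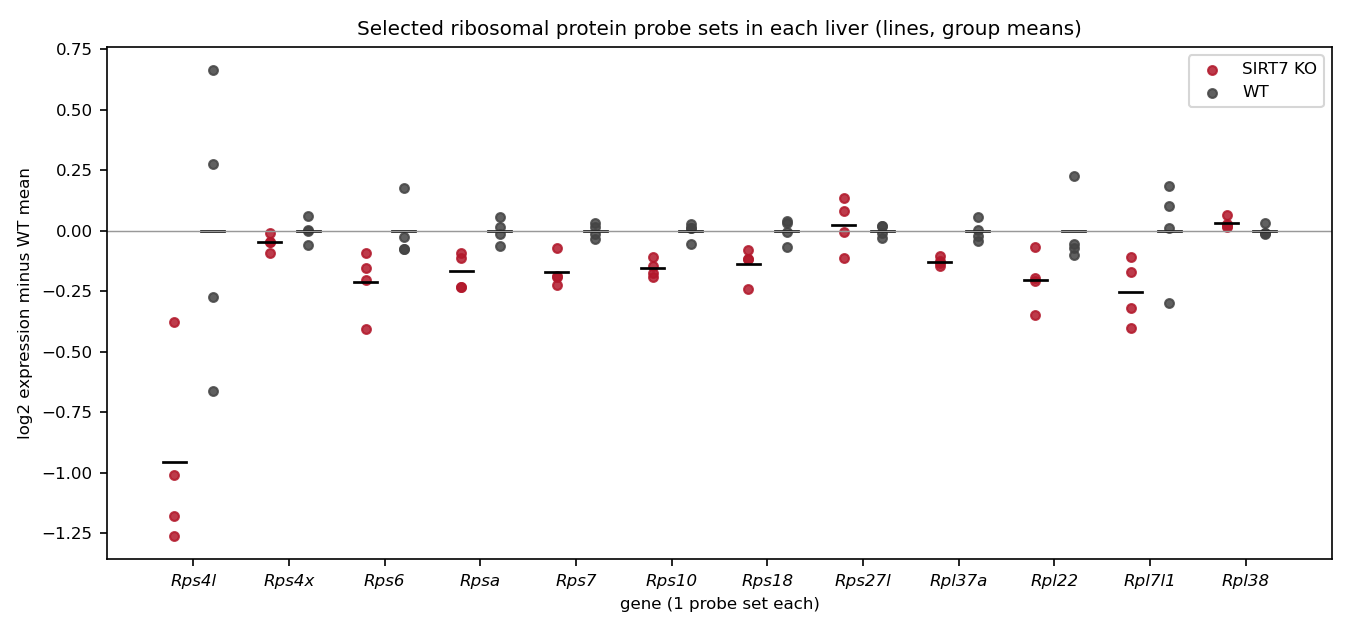
Log2 expression minus the WT mean (vertical axis) in each SIRT7 KO (red) and WT (grey) liver for 1 probe set of 12 genes (the brightest for Rps4x and Rps27l, the one with the smallest p for the rest), with lines at the group means. Rps4l has the widest spread of the 12, and the groups of Rps6, Rpsa, Rps7, Rps10, Rps18 and Rpl37a are apart by small gaps.

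Rps4l was the member with the largest difference and the smallest p. It is an autosomal relative of Rps4x, the X-linked gene that supplies the small subunit protein eS4. Its probe set 1452730_at read 8.01, 8.09, 8.26 and 8.89 in SIRT7 KO livers, against 8.99, 9.93, 8.60 and 9.54 in WT livers. SIRT7 KO array 4 lay above WT array 3, so the groups overlapped, and the WT livers alone spanned more than 1 log2 unit. The difference was -0.96 ± 0.29 (SE, -48.5%), with a 95% interval of -1.61 to -0.31 and an adjusted p of 0.166 (limma), short of the threshold. It was called with an adjusted p of 0.123 when only bright probe sets were tested, and with 0.106 and a difference of -1.18 when WT array 3 was left out. Rps4x itself differed by -0.05 ± 0.059 (SE) on its bright probe set.

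Rps20 came next by p in the small subunit, and only on a dim probe set. 1421935_at read 4.23, 4.13, 4.42 and 4.23 in SIRT7 KO livers, against 4.51, 4.66, 4.34 and 4.60 in WT livers, a difference of -0.28 ± 0.092 (SE, limma adjusted p = 0.202), or 0.146 without WT array 3. The bright Rps20 probe sets differed by -0.02 and -7.8e-05, so the low value was not shared by the probe sets that carried most signal.

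The remaining small subunit genes named by their brightness had overlapping groups. Rps29, a small zinc-binding protein, differed by -0.02, -0.10 and -0.12 on 3 bright probe sets. Rps3a1 differed by -0.09. Rps24, named here after its values were seen because its probe sets lay on both sides of 0, differed by -0.11 to 0.09. Rps27 and Rps25, measured by 1 probe set each, differed by -0.14 and -0.17, the second with a 95% interval of -0.63 to 0.28. Rps27l, a p53 target and paralog of Rps27, was the single gene of either subunit with several probe sets that were all positive, at 0.02, 0.03 and 0.04. Of the 14 small subunit genes with several probe sets, 9 were negative on all of them, and of the 10 with several bright ones, 9 were negative on all bright ones.

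In the large subunit, Rpl37a was the gene with a probe set that did not overlap. Rpl37a is a zinc-binding protein. On 1460543_x_at it read 12.92, 12.90, 12.91 and 12.94 in SIRT7 KO livers, against 13.02, 13.10, 13.00 and 13.05 in WT livers. The SIRT7 KO livers lay close together, and the difference was -0.13 ± 0.057 (SE, limma adjusted p = 0.343). The other probe sets differed by -0.10 and -0.14, with overlapping groups.

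Rpl14 had the smallest p in the large subunit, on a probe set below the median brightness. It read 5.51, 5.37, 5.48 and 5.51 in SIRT7 KO livers, against 5.72, 5.68, 5.49 and 5.99 in WT livers, a difference of -0.25 ± 0.10 (SE, limma adjusted p = 0.292). WT array 3 lay within the SIRT7 KO range, and without WT array 4 the difference was -0.16. Rpl7l1, a relative of Rpl7, read 8.55, 8.63, 8.78 and 8.84 in SIRT7 KO livers, against 8.65, 9.05, 8.96 and 9.14 in WT livers on 1452049_at, a difference of -0.25 ± 0.11 (SE, limma adjusted p = 0.348), and -0.19 on its other probe set. WT array 1 fell among the SIRT7 KO values. Rpl7 differed by -0.04 to -0.07 on 3 probe sets.

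Rpl22, an RNA-binding protein that is not needed for protein synthesis as such, read 11.19, 11.06, 11.05 and 10.91 in SIRT7 KO livers, against 11.16, 11.48, 11.20 and 11.19 in WT livers on 1416603_at. WT array 2 stood above the other WT arrays, and SIRT7 KO array 1 lay among them. The difference was -0.20 ± 0.093 (SE, limma adjusted p = 0.349), or -0.13 without WT array 2, and -0.19 on the other probe set. Its paralog Rpl22l1, which is known in mouse to rise when Rpl22 is lost, differed by 0.07 ± 0.12 (SE).

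Rpl41, the shortest ribosomal protein, was negative on 3 of its 4 probe sets and positive on the brightest. The dim 1433530_at read 5.43, 5.44, 5.60 and 5.60 in SIRT7 KO livers, against 5.38, 6.16, 5.72 and 6.14 in WT livers, a difference of -0.34 ± 0.16 (SE, limma adjusted p = 0.383). WT arrays 2 and 4 were high and WT array 1 was the lowest of all 8. The brightest Rpl41 probe set differed by 0.03 ± 0.064 (SE), the next by -0.05 and 1454639_x_at by -0.25.

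The other named large subunit genes had overlapping groups. Rpl35 and Rpl8, the second of which reaches the peptidyl transferase centre, differed by -0.11 and -0.11 on the probe set with the smallest p. Rpl38, known in mouse for its part in the translation of Hox mRNAs, read 13.44, 13.47, 13.42 and 13.42 in SIRT7 KO livers, against 13.40, 13.39, 13.44 and 13.40 in WT livers, a difference of 0.03. The stalk proteins Rplp0 and Rplp2, which recruit the elongation factors, differed by -0.06 and -0.02. Rpl3l and Rpl39l, paralogs known from muscle and testis, were both near the bottom of the array's range and differed by 0.11 and 0.02. Rpl12, beside the stalk, had the highest positive difference on a dim probe set, 0.27 ± 0.19 (SE, limma adjusted p = 0.56), or 0.09 without SIRT7 KO array 4 and 0.17 without WT array 1. Rpl13a and Rpl27, named here after their values were seen because their probe sets lay on both sides of 0, differed by -0.04 to 0.01 and by -0.03 to 0.06.

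**Figure D5:**
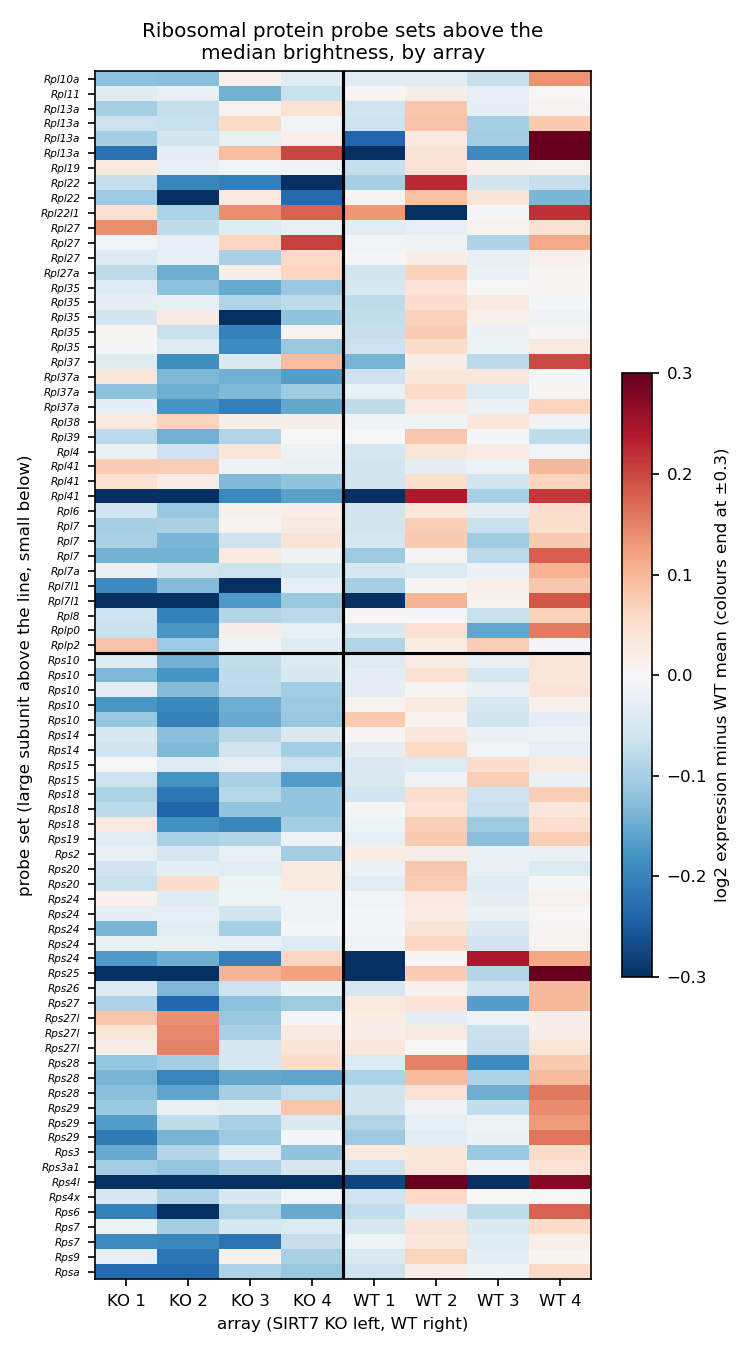
Log2 expression minus the WT mean (colour) of the ribosomal protein probe sets above the median brightness, 1 row each with the large subunit above the line, on SIRT7 KO arrays (left) and WT arrays (right). Blue, below the WT mean, fills most of the SIRT7 KO columns, SIRT7 KO array 2 most of all, and WT arrays 2 and 4 are mostly red.

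A further 102 ribosomal protein probe sets carried several gene symbols and were no members. They were close to the members in sign and size: 81 were negative and the median was -0.054. Of the 102, 90 were above the median brightness, where 57.3% of all probe sets were negative. All SIRT7 KO values lay below all WT values in 16, against 5.56% of all probe sets and 9.1% of the bright ones. By the test 1 was called lower and 0 higher, against 2.39% lower and 1.92% higher among all probe sets. Fau, which encodes the small subunit protein eS30, differed by -0.12 ± 0.067 (SE, limma adjusted p = 0.438).

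Genes of translation, its control and ribosome assembly were read on the same arrays, each by its brightest probe set. Of 19 other genes with TOP mRNAs, 1 fell and 0 rose, where 4.65% of all genes were called by their brightest probe set, and the median was -0.083. That gene was Eif4b, an initiation factor and S6 kinase substrate, which read 10.51, 10.43, 10.57 and 10.37 in SIRT7 KO livers, against 10.81, 10.88, 10.71 and 10.73 in WT livers (limma adjusted p = 0.0883), and all 3 of its probe sets had no overlap. Of 40 initiation and elongation factors, Eif4b again fell and 0 rose, a share below that of all genes, with a median of -0.041, and Eif3a, the scaffold of the initiation complex eIF3, fell by 0.40 on 1 further probe set (limma adjusted p = 0.0926) while its other 2 differed by -0.03 and 0.03.

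The mTORC1 and S6 kinase list had 17 measured genes and a median of -0.015. Of these, 2 were called lower and 1 higher, a share above the 4.65% of all genes. Deptor, an mTOR inhibitor, fell by 0.26 and Eif4ebp2, a brake on cap-dependent initiation, by 0.33, while Mlst8, an mTOR complex subunit, rose by 0.24 (limma adjusted p = 0.098, 0.100 and 0.147). Of 13 transcription factors tied to ribosomal protein genes, Mxi1, a Myc antagonist, fell by 0.28 (limma adjusted p = 0.131) and 0 rose. This was 1 of 13, where 4.65% of all genes were called. Of these factors 9 were negative, and the median was -0.12. Myc, named here after its values were seen, read 6.93, 6.98, 8.05 and 8.73 in SIRT7 KO livers, against 6.55, 6.25, 6.51 and 8.50 in WT livers, a difference of 0.72 ± 0.55 (SE, limma adjusted p = 0.605), with SIRT7 KO arrays 3 and 4 and WT array 4 high. Of 55 ribosome assembly factors 2 were called, a share below the 4.65% of all genes. Emg1, a methyltransferase of the small subunit rRNA, fell by 0.28 and Nol6, a nucleolar processing factor, rose by 0.26 (limma adjusted p = 0.107 and 0.130), with a median of -0.069. Nip7, needed for rRNA processing, fell by 0.36 on its dim probe set (limma adjusted p = 0.117) and differed by -0.11 on the other. With 1 array left out at a time, these related genes kept their calls in 0 of 8 fits (Mlst8) to 4 of 8 fits (Eif4b), each with its sign unchanged. The medians of these lists lay on the same side of 0 as those of the ribosomal proteins, beside -0.0031 for all probe sets. Most of the listed genes were read by bright probe sets. Of all bright probe sets 57.3% were negative, with a median of -0.030, which lay further below 0 than that of the mTORC1 list.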

How the data were processed

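Total RNA from 4 SIRT7 KO and 4 WT mouse livers was hybridised to Affymetrix GeneChip mouse arrays. The authors deposited 1 table of log2 values per probe set and array; RMA stands in the methods and GCRMA in the submitters' processing notes, and it is not known which of them gave these values. Both summarise probes to a log2 scale, but they correct background differently, which bears on dim probe sets. No value columns were left unmapped. Of 22690 rows, 64 control rows were left out of the tests. Gene symbols came from the platform annotation, with 1 symbol for 20380 probe sets, several for 691 and none for 1555; all 48 member genes matched RefSeq GRCm38.p6.

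SIRT7 KO minus WT was fitted with limma 3.58.1 in R 4.3.3 (lmFit, eBayes, genotype only, two-sided), with Benjamini-Hochberg adjustment over 22626 probe sets and a threshold of 0.15. In simulated data of the same size, 88% of changes of 1 on the log2 scale were recovered. Every member difference was smaller than 1, most of them by far. Changes that small were not simulated, so the share recovered at their size is not known. Named genes were, by subunit, the 8 with the smallest p, the 3 brightest and 3 dimmest, paralogs, stalk proteins, Rpsa and genes with probe sets of opposite sign of which 1 had an unadjusted p under 0.05, and up to 3 per related list. Some further genes were named after their values were seen. Members and lists were chosen with earlier results of these data known. No set test was run. The number of arrays limits the precision.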

Additional observations from a re-analysis of the deposited data

Results flagged for a closer look

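Over 122 groups of 4 values of the named probe sets, 6 held a value far from its nearest neighbour by Dixon's test, where chance gives about 5%. On Rpl37a 1416217_a_at, SIRT7 KO array 1 read 13.4954, with the next SIRT7 KO value at 13.3258. On Rpl22 1416603_at, WT array 2 read 11.4845, with the next WT value at 11.204. On Rpl39l 1423327_at, SIRT7 KO array 2 was high at 4.17521, next to 3.99691, and WT array 1 was low at 3.89673, next to 4.03744. On Rpl38 1433472_x_at, WT array 3 was high at 13.4378, next to 13.3967. On Rps27l 1450925_a_at, WT array 3 was low at 13.0535, next to 13.1399.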

How the results depend on the processing

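The large subunit had 0 called probe sets under every alternative run (a false discovery rate of 0.05, trend and robust variance, array weights, a further quantile normalization, median centring, a filter on dim probe sets, the brightest probe set per gene, no x_at and s_at probe sets, the replicate block, and each array left out). The small subunit had 1 with the filter on dim probe sets, Rps4l, 0 to 2 with an array left out, the 2 being Rps4l and Rps20 without WT array 3, and 0 under the others. The medians stayed negative throughout, from -0.078 to -0.024 in the large subunit (-0.024 without WT array 4) and from -0.087 to -0.055 in the small subunit with an array left out. The count without overlap, whose alternatives were chosen after seeing the data, was in the large subunit 2 after median centring, 0 without x_at and s_at probe sets and 1 to 8 with an array left out (7, 2 and 5 without SIRT7 KO arrays 1, 2 and 4, and 8 and 4 without WT arrays 1 and 3). In the small subunit it was 8 after quantile normalization, 7 of 29 without x_at and s_at probe sets and 13 to 22 with an array left out. Among all probe sets the share without overlap was 5.02% after quantile normalization and 5.67% after median centring. It was 6.88% to 8.24% of all probe sets with an array left out. The calls of related and marker genes (alternatives also chosen after seeing the data) were all lost at 0.05 except Lyve1, and Mlst8 held in 1 of 6 alternatives that kept all arrays. All called probe sets numbered 975, against 156 at 0.05, 633 by the brightest of 12393 genes and 222 to 900 with an array left out. The replicate block called 0 members in either subunit and 628 in all; array numbers did not pair the samples (correlations of 0.26, -0.25, -0.16 and 0.15, with 1 of 4 pairs its own best match). Differences of this size are at the limit of 4 arrays a group, and dim probe sets carry little signal over background.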
